A study of Mus musculus with 92 samples.

Results

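The livers described here came from female CD-1 mice (an outbred stock, wild type by the labels) that had received hexafluoropropylene oxide dimer acid (HFPO-DA) at 0.5 mg/kg by gavage each day for 9 months. They were 5 of the 92 livers of the series, chosen by their labels for sex, duration and dose. They were set against the 5 livers of female mice of the same stock dosed with 0 mg/kg for the same time, so the comparison rests on 10 livers, each labelled as a mouse of its own. The other 9-month female groups, which shared the fit, had received 0.05 mg/kg (4 livers), 0.1 mg/kg (5 livers) or 5 mg/kg (5 livers). Males of 9 months (4 controls, 5 livers at 0.5 mg/kg) and females of 18 months (5 controls, 5 livers at 0.5 mg/kg) served for comparison. All livers shared daily gavage, formalin fixation, paraffin embedding and scraping from mounted sections. RNA was read with TempO-Seq, in which pairs of detector probes are ligated on their target transcript and then counted. No age at the first dose, vehicle, batch or litter is given in the labels.

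HFPO-DA is a short-chain ether acid of the per- and polyfluoroalkyl group. In rodent liver, fatty acids and many perfluorinated acids bind PPAR-alpha, a nuclear receptor that pairs with RXR and sits on DNA at direct repeats of a short element. Its classic targets carry out peroxisomal, mitochondrial and omega-oxidation of fatty acids and the uptake and storage of lipid. Sexes of mice are known to differ in liver gene expression, including genes of lipid and steroid metabolism.

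The 10 libraries held 4705124 to 6669437 counts and 11382 to 13090 detected genes each, and the 20 most abundant genes took 12.3% to 18.1% of the counts. Over all 92 libraries the total ran from 403108 to 17638156 counts. The hepatocyte markers with a probe (9 of the 10 listed, among them Alb, Ttr and Hnf4a) summed to 20385 to 41602 CPM (counts scaled to the size of the library) in the 10 livers, with none at 0. Adipocyte markers summed to at most 1.10 CPM.

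Control replicates 1 and 3 stood apart from the rest of their group. The lymphocyte and plasma cell markers summed to 916, 68.7, 780, 80.3 and 55.6 CPM in control replicates 1 to 5, and to 90.7, 43.5, 39.8, 55.8 and 46.3 CPM in the 0.5 mg/kg replicates 1 to 5. These 2 control livers lay far above every other liver of either group. Of the 4 livers at 0.05 mg/kg, 2 were high as well, at 774 and 1324 CPM. Markers of neutrophils and red cells summed to 176 and 527 CPM in control replicates 1 and 3, to 24.2 to 79.7 CPM in the other controls and to 40.3 to 76.6 CPM at 0.5 mg/kg. In bulk tissue, fewer cells of a type cannot be told apart from less RNA per cell. The count of genes called, the medians of most lists and the changes of most genes with values in every liver are also given without these 2 control livers. That choice was made after the data were seen. Medians at the other doses, and those of genes called in other animals, are given with all controls only.

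Of 11642 genes tested, 1 passed the test at 0.5 mg/kg, and it was higher. This gene, Retsat, encodes retinol saturase, an enzyme of the endoplasmic reticulum that converts retinol to dihydroretinol, and it is a known PPAR-alpha target. The call rule was an adjusted p under 0.05 by edgeR's quasi-likelihood test with Benjamini-Hochberg adjustment over all genes, and it marked 0.00859% of genes as higher and 0% as lower. At an unadjusted p under 0.05, 313 genes were higher (2.69%) and 741 lower (6.36%). DESeq2, fitted to the same livers, called 14 genes higher and 75 lower. Of those 75, 66 were more abundant in both control replicates 1 and 3 than in each of the other 3 controls. That share was not computed over all genes. In edgeR without these 2 controls no gene passed. At an unadjusted p under 0.05 the counts were then 187 higher and 165 lower of 11569 tested. Below, DESeq2 values are given only for genes that it called. The lipid genes described that it did not call include Acaa1a, Crot, Pex11a, Eci1, Acadvl, Acadm, Acadl, Cyp4a10, Cyp4a14, Plin2, Cd36, G0s2 and Me1.

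Retsat measured 41.1, 64.7, 97.8, 113 and 96.5 CPM in control replicates 1 to 5. The 0.5 mg/kg replicates 1 to 5 measured 188, 190.2, 212, 201 and 267 CPM. Every treated liver lay above every control, and control replicate 1 was the lowest of the 10. Group means were 82.5 ± 29.01 CPM (SD, n = 5) in controls and 212 ± 32.4 CPM (SD, n = 5) at 0.5 mg/kg. Retsat rose by 1.36 ± 0.22 (SE) on the log2 scale, with a 95% interval of 0.90 to 1.82 and an adjusted p of 0.0168 by edgeR's quasi-likelihood test. Over 18 settings of the analysis its log2 change lay between 1.198 and 1.499, and it passed in 12 of them. In edgeR it did not pass without control replicate 2 (adjusted p = 0.132), without 0.5 mg/kg replicate 3 (0.0589) or replicate 5 (0.107), or without control replicates 1 and 3 together (0.116). It also missed the threshold when only these 10 livers (0.121) or all 92 livers (0.276) were fitted.

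The promoter of Retsat is shown with those of Ehhadh and Plin2, the peroxisomal and lipid droplet genes described next, because PPAR-alpha with RXR is known to bind the direct repeat AGGTCANAGGTCA. Each window runs from 250 bases before to 50 bases after the gene start, taken from RefSeq on GRCm38.p6 and written 5′ to 3′ on the gene's own strand, with capitals for a match on either strand in which at most 2 of the 12 fixed letters differ. The Retsat window is chr6:72598352-72598651 on the plus strand, the Ehhadh window chr16:21787785-21788084 on the minus strand and the Plin2 window chr4:86670010-86670309 on the minus strand.
Retsat: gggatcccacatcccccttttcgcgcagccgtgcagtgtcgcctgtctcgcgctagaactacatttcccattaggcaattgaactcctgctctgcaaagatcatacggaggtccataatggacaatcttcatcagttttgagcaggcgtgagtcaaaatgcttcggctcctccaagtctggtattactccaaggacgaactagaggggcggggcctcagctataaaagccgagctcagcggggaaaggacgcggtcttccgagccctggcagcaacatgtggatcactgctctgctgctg
Ehhadh: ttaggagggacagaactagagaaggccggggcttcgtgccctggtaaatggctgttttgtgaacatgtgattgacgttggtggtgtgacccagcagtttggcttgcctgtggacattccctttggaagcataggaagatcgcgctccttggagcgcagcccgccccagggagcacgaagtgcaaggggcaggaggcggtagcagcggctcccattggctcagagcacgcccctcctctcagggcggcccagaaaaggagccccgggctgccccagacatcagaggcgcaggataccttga
Plin2: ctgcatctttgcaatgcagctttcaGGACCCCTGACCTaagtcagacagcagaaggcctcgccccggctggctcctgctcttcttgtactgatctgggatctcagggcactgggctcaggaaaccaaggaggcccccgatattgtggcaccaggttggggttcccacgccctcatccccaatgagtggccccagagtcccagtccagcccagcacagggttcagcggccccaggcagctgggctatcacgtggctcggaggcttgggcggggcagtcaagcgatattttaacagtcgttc
Neither the Retsat nor the Ehhadh window held a match, which says only that these letters are not in this stretch. The Plin2 window held 1, GGACCCCTGACCT, on the opposite strand to the gene, with 2 letters differing and its start 225 bases before the gene start. Of all genes with a promoter in the table, 4.4% held a match under this rule, and of the 37 matched genes of the 3 fatty acid oxidation lists, 3 did (8.11%). The windows of Acaa1a, Acaa1b, Crot, Eci1, Acot1, Acot2, Me1 and Pex11a, not shown, held none either. A match is a description of letters and not evidence of a binding site.

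Peroxisomal beta-oxidation shortens very long and branched fatty acids. None of its 19 tested genes passed, 18 of them had a log2 change above 0, and their median was 0.35, against -0.02 and 47.7% above 0 over all genes. At an unadjusted p under 0.05, 6 of the 19 were higher (2.69% of all genes) and none lower (6.36% of all genes). Without control replicates 1 and 3 the median was 0.15 and 13 of the 19 lay above 0. Counts here are descriptions of a list, with no test of the list.

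Ehhadh, the peroxisomal bifunctional enzyme that hydrates and dehydrogenates the acyl chain, measured 455, 572, 494, 767 and 637 CPM in controls and 932, 945, 1093, 988 and 1134 CPM at 0.5 mg/kg. The groups did not overlap, which held for 45 genes in the higher direction (0.387%). Its log2 change was 0.80 ± 0.19 (SE), with an adjusted p of 0.256 by edgeR and 0.0102 by DESeq2, and it was 0.63 without control replicates 1 and 3. Acaa1a, the thiolase that releases acetyl-CoA at the end of the cycle, measured 600.2, 674, 811, 624.8 and 877 CPM in controls and 904, 1025, 1878, 1236 and 1589 CPM at 0.5 mg/kg. Here too no treated liver fell within the control range, and replicate 3 was the highest. Its log2 change was 0.89 ± 0.28 (SE), adjusted p = 0.283 by edgeR, and 0.88 without control replicates 1 and 3. The probes of Acaa1a differed, at 0.94, 0.008 and 0.45 on the log2 scale. They averaged 653, 42.9 and 22.2 CPM in controls, so the sum mostly follows the first. Acaa1b, another thiolase with a closely similar sequence, measured 9.67, 9.50, 8.45, 14.8 and 11.03 CPM in controls and 8.91, 37.4, 31.7, 28.9 and 16.9 CPM at 0.5 mg/kg. Treated replicate 1 lay within the control range and the other 4 above it. The log2 change of Acaa1b was 1.21 ± 0.27 (SE), with an adjusted p of 0.182 by edgeR and 0.011 by DESeq2, and it was 1.08 without the 2 controls. Crot, which attaches carnitine to chain-shortened fatty acids for export, gave 0.68 ± 0.22 (SE; adjusted p = 0.286 by edgeR), and 0.47 without them. Genes of peroxisome assembly had a median of 0.20 over 18 tested genes, with 14 above 0 and none passing. The median was 0.01, with 10 of the 18 above 0, without control replicates 1 and 3. Pex11a, which promotes peroxisome division, gave 0.62 ± 0.28 (SE; adjusted p = 0.501 by edgeR), and 0.50 without them.

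**Figure D1:**
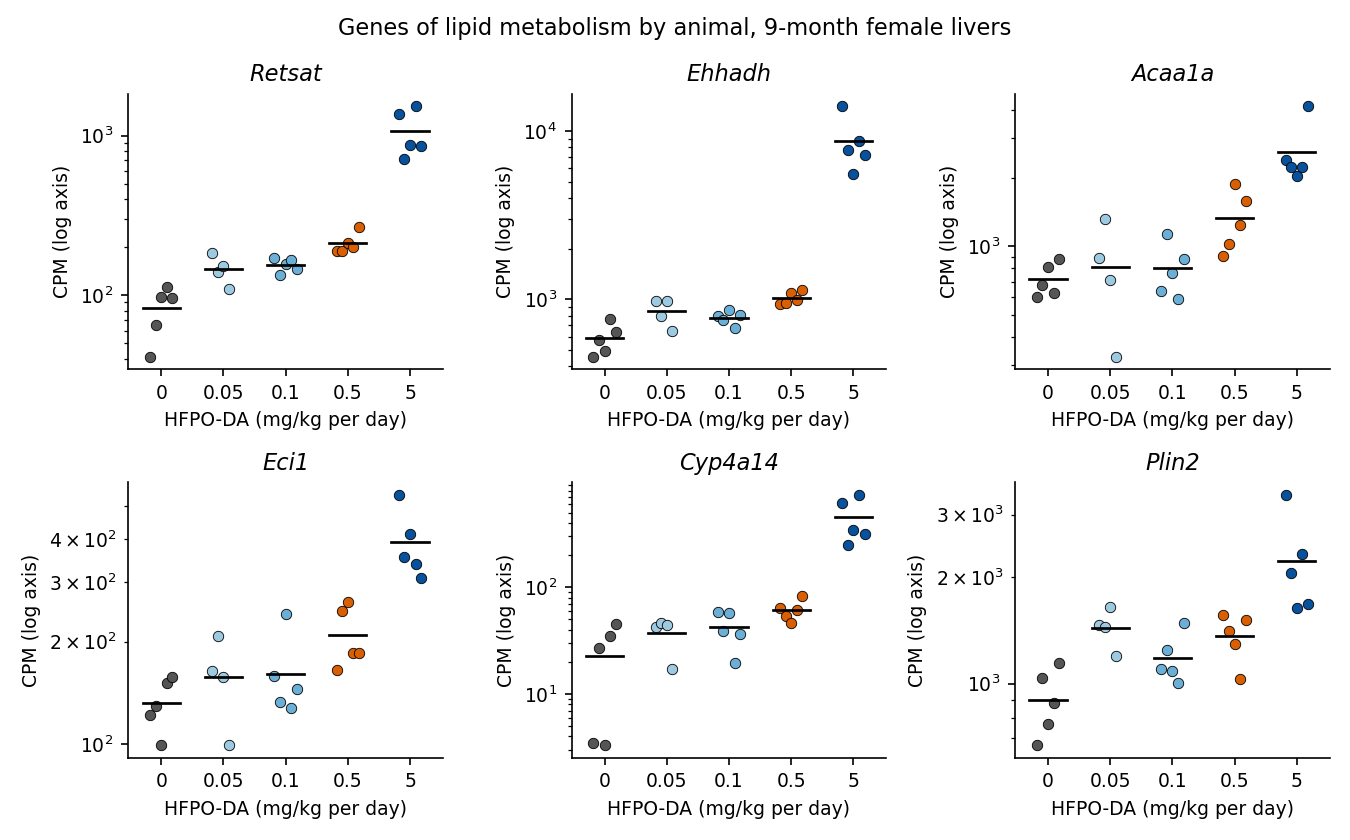
CPM (log axis) of 6 lipid genes in each 9-month female liver by dose of HFPO-DA (points are livers, bars the group mean). Retsat, Ehhadh, Acaa1a, Eci1 and Cyp4a14 were above the range of the 5 controls in all 5 livers at 0.5 mg/kg, while Plin2 overlapped.

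Mitochondrial oxidation shortens the common long and medium chains, and ketogenesis turns the product into ketone bodies. None of 21 tested genes of these pathways passed, 20 lay above 0 and the median log2 change was 0.33. Without control replicates 1 and 3 the median was 0.11 and 13 of the 21 lay above 0. Eci1, the mitochondrial isomerase needed for unsaturated fatty acids, measured 121, 129, 99.1, 151 and 157 CPM in controls and 165, 246, 261, 185.5 and 185 CPM at 0.5 mg/kg. No treated liver was as low as the highest control, and the log2 change was 0.66 ± 0.20 (SE; adjusted p = 0.283 by edgeR), or 0.52 without control replicates 1 and 3. The acyl-CoA dehydrogenases for very long, medium and long chains, Acadvl, Acadm and Acadl, gave log2 changes of 0.37, 0.36 and 0.42, with adjusted p of 0.401, 0.434 and 0.440 by edgeR, and 0.16, 0.19 and 0.14 without the 2 controls.

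Omega-oxidation, in which cytochromes of the Cyp4a family hydroxylate the far end of a fatty acid, had the highest median of the fatty acid lists. It was 1.03 over 12 genes, with 11 above 0 and none passing. At an unadjusted p under 0.05, 5 were higher (2.69% of all genes). Without control replicates 1 and 3 the median of the list was 0.63, with 10 of 12 above 0. Cyp4a14 measured 3.48, 26.7, 3.31, 35.1 and 45.7 CPM in controls and 64.2, 54.01, 46.7, 60.7 and 82.96 CPM at 0.5 mg/kg. Control replicates 1 and 3 were the lowest, and the lowest treated liver was just above the highest control. Its log2 change was 1.43 ± 0.55 (SE; adjusted p = 0.405 by edgeR), and 0.79 without those 2 controls. Cyp4a10 measured 24.5, 77.7, 56.1, 172 and 180.0 CPM in controls and 148, 211, 292, 217 and 380.2 CPM at 0.5 mg/kg, so that 1 treated liver overlapped with the upper controls. Its log2 change was 1.29 ± 0.43 (SE; adjusted p = 0.298 by edgeR), and 0.81 without the 2 controls. Acot1, a cytosolic thioesterase that frees fatty acids from coenzyme A, measured 17.1, 53.8, 38.6, 72.04 and 95.2 CPM in controls and 73.1, 219, 220.4, 224 and 90.6 CPM at 0.5 mg/kg. Treated replicates 1 and 5 overlapped with the controls and the other 3 were far above the highest control. The log2 change of Acot1 was 1.58 ± 0.44 (SE), adjusted p = 0.283 by edgeR and 0.0363 by DESeq2, and 1.17 without the 2 controls. Cyp4a10 has near-identical neighbours (Cyp4a31, Cyp4a32), and Acot1 has Acot2, so reads of these genes may be shared between them.

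Genes of lipid uptake, binding and droplets had a median log2 change of 0.39 over 23 tested genes, with 21 above 0 and none passing. The median was 0.17 without control replicates 1 and 3, and 19 of the 25 genes then tested lay above 0. Plin2, which coats lipid droplets, measured 669, 1036, 768, 879 and 1141 CPM in controls and 1558, 1405, 1294, 1030 and 1513 CPM at 0.5 mg/kg. Treated replicate 4 lay within the control range and the other 4 livers above it, for a log2 change of 0.60 ± 0.19 (SE; adjusted p = 0.283 by edgeR), or 0.42 without control replicates 1 and 3. Cd36, a fatty acid transporter of the cell surface, measured 42.2, 59.9, 73.9, 51.4 and 29.5 CPM in controls and 51.7, 104, 83.1, 67.9 and 90.6 CPM at 0.5 mg/kg. The ranges overlapped, and the log2 change was 0.63 ± 0.32 (SE; adjusted p = 0.580 by edgeR), or 0.77 without the 2 controls. G0s2, an inhibitor of the lipase that opens the droplet, had a log2 change of 1.47 ± 0.57 (SE; adjusted p = 0.403 by edgeR), or 1.42 without the 2 controls, with treated livers from 24.5 to 338 CPM and controls from 38.7 to 101 CPM.

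The 12 secreted and regulatory PPAR-alpha targets contained Retsat, the 1 gene that passed, and had a median of 0.21 with 8 above 0, or 0.17 without control replicates 1 and 3. Ppara itself measured 96.5 to 260 CPM in controls and 94.4 to 244 CPM at 0.5 mg/kg, with a log2 change of 0.01 ± 0.33 (SE; adjusted p = 0.999 by edgeR). Pdk4, a kinase that holds back glucose oxidation, was at most 2.39 CPM in any of the 10 livers, with a log2 change of -0.23 ± 0.83 (SE). Fgf21, a fasting hormone of the liver, gave -0.49 ± 0.70 (SE), at 0.811 to 5.70 CPM in controls and 0.460 to 5.35 CPM at 0.5 mg/kg. Low counts left wide errors for both genes, so these values do not show that either was unchanged.

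Other nuclear receptor programmes were examined through their marker genes. Cyp2b10, the usual marker of the receptor CAR, had a log2 change of 0.19 ± 0.51 (SE), Cyp3a11, the marker of PXR, -0.05 ± 0.55 (SE), and Cyp1a2, a marker of the aryl hydrocarbon receptor, 0.27 ± 0.43 (SE). None of 15 CAR and PXR targets or 6 aryl hydrocarbon receptor targets passed, with medians of 0.12 and -0.07, or -0.07 and -0.01 without control replicates 1 and 3. Aldh1a1, a retinaldehyde dehydrogenase in the CAR and PXR list, measured 4.53, 5.38, 5.15, 14.3 and 13.3 CPM in controls and 11.8, 26.9, 37.9, 12.5 and 25.3 CPM at 0.5 mg/kg. Treated replicates 1 and 4 fell between the lower and upper controls. Its log2 change was 1.43 ± 0.35 (SE), adjusted p = 0.256 by edgeR and 0.0174 by DESeq2, and 1.06 without the 2 controls.

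Lipid synthesis genes had a median of 0.31 over 20 tested genes, with 16 above 0 and none passing, and 0.24 without control replicates 1 and 3. Me1, which supplies NADPH for fatty acid synthesis, measured 101, 138, 119, 182 and 128 CPM in controls and 217, 171.5, 196, 242 and 205 CPM at 0.5 mg/kg. Only treated replicate 2 lay within the control range. The log2 change of Me1 was 0.63 ± 0.18 (SE; adjusted p = 0.283 by edgeR), or 0.47 without the 2 controls. None of 17 lipoprotein, 24 cholesterol, 23 bile acid or 18 oxidative stress genes passed, and their medians were 0.05, -0.04, 0.23 and 0.26. Without control replicates 1 and 3 the 4 medians were -0.06, -0.14, 0.07 and 0.12.

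**Figure D2:**
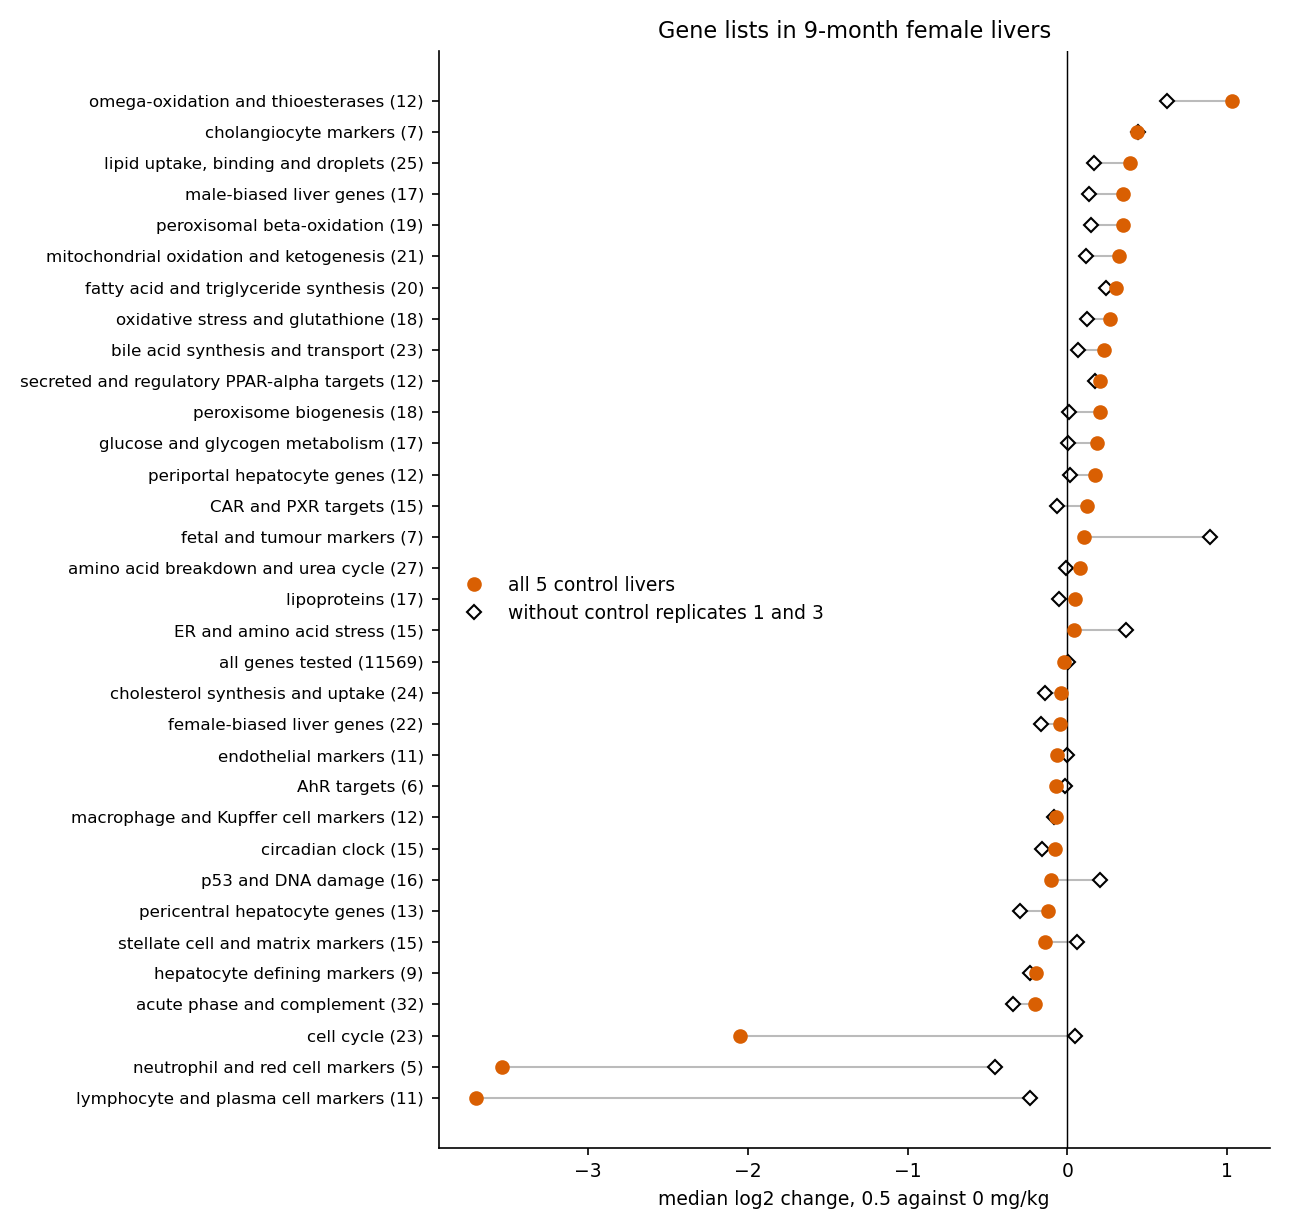
Median log2 change of each gene list at 0.5 against 0 mg/kg in 9-month females, with all 5 control livers (filled circles) and without control replicates 1 and 3 (open diamonds); parentheses give the genes tested in the fit without those 2. The cell cycle median moves from -2.05 to 0.049 and that of lymphocyte and plasma cell markers from -3.70 to -0.23, while omega-oxidation goes from 1.03 to 0.63. The 2 controls were picked out by their lymphocyte markers, so the shift of that list follows from the choice.

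The lowest list medians belonged to cell cycle and blood cell genes, and they changed when the 2 control livers high in lymphocyte markers were left out. Of 25 cell cycle genes none passed, and 13 were lower at an unadjusted p under 0.05 (6.36% of all genes). Their median log2 change was -2.05, or 0.049 without control replicates 1 and 3. Ccne2, a cyclin of entry into DNA synthesis, measured 35.2, 8.61, 22.6, 6.22 and 9.41 CPM in controls and 2.01, 4.62, 1.86, 4.28 and 5.83 CPM at 0.5 mg/kg. Its groups did not overlap, as for 70 genes in the lower direction (0.601%), and control replicates 1 and 3 were the highest. The log2 change of Ccne2 was -2.13 ± 0.53 (SE; adjusted p = 0.256 by edgeR), and -1.10 without the 2 controls. Of 12 lymphocyte and plasma cell markers 10 were lower at an unadjusted p under 0.05 (6.36% of all genes) and none passed. The median went from -3.70 to -0.23 without the 2 controls. These 2 controls had been picked out by the same markers, so this shift follows from the choice and is no test. Neutrophil and red cell markers had a median of -3.54, or -0.45 without them.

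A fatty acid oxidation index was taken for each liver from the 52 genes in the lists of peroxisomal, mitochondrial and omega-oxidation, as their average log2(CPM + 1) after the control mean of each gene had been subtracted. It was -0.56, 0.20, -0.30, 0.24 and 0.42 in control replicates 1 to 5 and 0.16, 0.59, 0.62, 0.38 and 0.69 in the 0.5 mg/kg replicates 1 to 5. Control replicates 1 and 3, the livers high in lymphocyte markers, had the 2 lowest values, and the other 3 controls overlapped with the treated livers. The treated mean lay 0.49 above all controls and 0.20 above the other 3. Pooled SDs between livers were 0.33 with all controls and 0.19 with the 3. Because replicates 1 and 3 had the lowest control values, the smaller difference follows from leaving them out. Why they were low was not tested. By dose the index averaged 0.18 ± 0.34 (SD, n = 4) at 0.05 mg/kg and 0.26 ± 0.12 (SD, n = 5) at 0.1 mg/kg. It averaged 0.49 ± 0.22 (SD, n = 5) at 0.5 mg/kg and 1.36 ± 0.16 (SD, n = 5) at 5 mg/kg. The 3 controls other than replicates 1 and 3 averaged 0.29, above the means at 0.05 and 0.1 mg/kg. The mean at 0.05 mg/kg still holds the 2 livers of that dose that were high in lymphocyte markers. These groups were thus not filtered alike, and their order is not a like-for-like comparison. The lowest liver at 5 mg/kg, at 1.23, lay above the highest at 0.5 mg/kg, whereas the 0.5 mg/kg range overlapped with both lower doses.

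**Figure D3:**
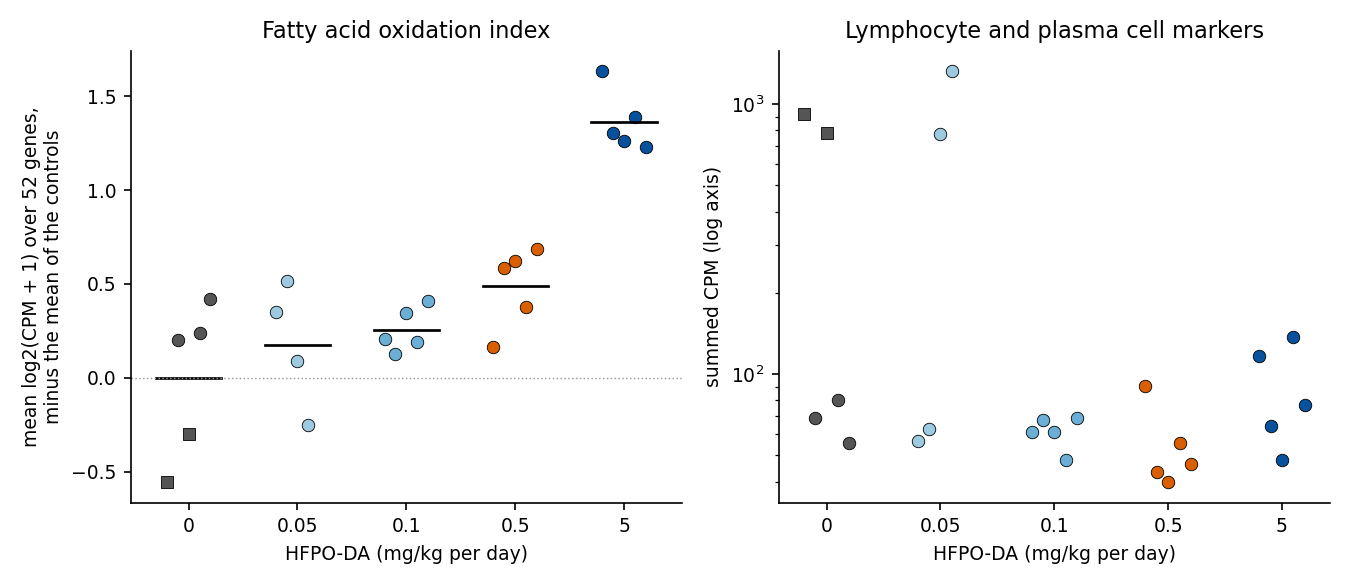
Fatty acid oxidation index (left) and summed CPM of lymphocyte and plasma cell markers (right, log axis) in each 9-month female liver by dose; squares are control replicates 1 and 3, other points the remaining livers, and bars the group mean of the index. The 2 squares have the lowest control indices (-0.56 and -0.30) and the highest control marker sums (916 and 780 CPM).

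By edgeR the smallest p-values next to Retsat belonged to genes outside the lipid lists, and none of them passed in that test. DESeq2 called Gpr65 (adjusted p = 0.000135) and Rgs3 (adjusted p = 0.000599). Rgs3, a regulator of G protein signalling chosen after its values were seen, measured 37.8, 26.7, 22.97, 16.8 and 23.5 CPM in controls and 9.80, 2.10, 10.5, 8.56 and 8.13 CPM at 0.5 mg/kg. No treated liver reached the lowest control. Its log2 change was -1.70 ± 0.33 (SE; adjusted p = 0.0627 by edgeR), or -1.51 without control replicates 1 and 3, and at 5 mg/kg the 5 livers measured 4.13 to 10.4 CPM. Gpr65, a proton-sensing receptor of immune cells, was at 0 in all 5 livers at 0.5 mg/kg and measured 3.93, 3.05, 5.15, 2.01 and 1.46 CPM in controls. The 5 controls held 91 counts, with 26 and 28 in replicates 1 and 3 and 17, 11 and 9 in the others. With a set floor of 3 counts over the treated group, Gpr65 was at least 29.2-fold lower than in all controls. That figure takes no account of the spread between livers and was not computed without control replicates 1 and 3. The adjusted p of Gpr65 was 0.0627 by edgeR. At 5 mg/kg Gpr65 was present in all 5 livers, at 0.859 to 3.96 CPM. Dio1, the deiodinase that activates thyroid hormone, also chosen after its values were seen, measured 573, 145, 231, 412 and 353 CPM in controls and 59.5, 72.5, 25.6, 51.8 and 40.9 CPM at 0.5 mg/kg. Every treated liver was below every control. The log2 change of Dio1 was -2.78 ± 0.57 (SE), with an adjusted p of 0.182 by edgeR and 0.000306 by DESeq2, and -2.60 without control replicates 1 and 3. At 5 mg/kg Dio1 measured 182 to 916 CPM and was higher than at 0.5 mg/kg by 3.09 on the log2 scale (adjusted p = 0.00905 by edgeR).

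Gabpb2, a subunit of the GA-binding transcription factor, measured 92.2, 95.9, 90.1, 76.97 and 65.04 CPM in controls and 33.6, 35.9, 58.9, 32.7 and 34.04 CPM at 0.5 mg/kg. The groups did not overlap, and the log2 change was -1.10 ± 0.24 (SE), with an adjusted p of 0.172 by edgeR and 0.00853 by DESeq2. Without control replicates 1 and 3 the log2 change of Gabpb2 was -1.02. Its 2 probes differed: one gave -0.10 and the other -2.07 on the log2 scale. Against the same controls Gabpb2 gave -1.37 at 0.1 mg/kg (adjusted p = 0.0436 by edgeR) and -1.15 at 5 mg/kg (adjusted p = 0.00585 by edgeR). In males of 9 months at 0.5 mg/kg it fell by 1.78 (adjusted p = 2.91e-05 by edgeR), and in females of 18 months it gave 1.24 (adjusted p = 0.0964). The difference between 9 and 18 months in females was tested and passed, at -2.35 ± 0.32 (SE; adjusted p = 1.37e-06 by edgeR).

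The 0.5 mg/kg livers were next set against the neighbouring doses in females of 9 months. Between 0.5 and 0.1 mg/kg no gene passed by edgeR (0%), 454 had an unadjusted p under 0.05 (3.9%), and DESeq2 called 3. Between 5 and 0.5 mg/kg 71 genes were higher (0.61%) and 43 lower (0.369%). These comparisons share the 0.5 mg/kg livers. Retsat averaged 82.5 CPM at 0, 146 at 0.05, 155 at 0.1, 212 at 0.5 and 1069 at 5 mg/kg. Its log2 difference between 5 and 0.5 mg/kg was 2.33 ± 0.23 (SE; adjusted p = 2.53e-07 by edgeR), and between 0.5 and 0.1 mg/kg 0.45 ± 0.22 (SE; adjusted p = 0.9996 by edgeR). Ehhadh was higher at 5 than at 0.5 mg/kg by 3.09 ± 0.21 (SE; adjusted p = 5.28e-11 by edgeR).

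Genes of fatty acid handling made up part of the difference between 5 and 0.5 mg/kg. Of the genes tested, 4 of 19 peroxisomal and 6 of 21 mitochondrial genes were called higher at 5 than at 0.5 mg/kg. So were 6 of 12 omega-oxidation and 4 of 23 lipid uptake genes, against 0.61% of all genes. In these lists 1 omega-oxidation gene was called lower, against 0.369% of all genes. The median log2 changes against controls at 0.05, 0.1, 0.5 and 5 mg/kg, which share those controls, were 0.12, 0.19, 0.35 and 0.98 for peroxisomal and 0.29, 0.31, 1.03 and 3.50 for omega-oxidation genes. Pdk4 was higher at 5 than at 0.5 mg/kg by 4.07 ± 0.86 (SE; adjusted p = 0.0133 by edgeR), at 7.39 to 25.8 CPM. Cidec, which fuses lipid droplets, and Ucp3, a mitochondrial carrier, were higher by 6.49 and 6.41 (adjusted p = 0.00159 and 0.00919 by edgeR).

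Female-biased genes also separated the 2 doses. Of 22, 6 were called lower at 5 than at 0.5 mg/kg (0.369% of all genes) and none higher (0.61% of all genes). Between 0.5 and 0 mg/kg none of the 22 passed, and their median was -0.04, or -0.16 without control replicates 1 and 3. Cyp2c69 and Sult3a1, a cytochrome and a sulfotransferase of the same list, had log2 differences of -3.62 and -3.54 between 5 and 0.5 mg/kg (adjusted p = 0.0242 and 0.0453 by edgeR). Amino acid breakdown and urea cycle genes, 27 tested, had 4 called lower at 5 than at 0.5 mg/kg and none passing at 0.5 mg/kg.

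The same dose was given to males for 9 months, and there 61 genes were called higher (0.536%) and 11 lower (0.0967%) of 11371 tested. In males 6 of 19 peroxisomal, 5 of 21 mitochondrial, 7 of 12 omega-oxidation and 5 of 25 lipid uptake genes were called higher, with medians of 0.79, 0.71, 2.33 and 0.98. The difference between the sexes was tested as an interaction over all 92 livers, and it passed for 39 of 13681 genes: 4 with the higher change in females (0.0292%) and 35 with the lower (0.256%). Ehhadh was among the latter. On the scale of that fit it went from 515 ± 111 to 898 ± 81.1 CPM (SD, n = 5 each) in females and from 418 ± 112 (SD, n = 4) to 3932 ± 1435 CPM (SD, n = 5) in males. The interaction was -2.43 ± 0.56 (SE; adjusted p = 0.0429 by edgeR), and without female control replicates 1 and 3 it was -2.60 with an adjusted p of 0.102. When male control replicate 3 was left out, no gene passed by edgeR, and Ehhadh was at -2.61 (adjusted p = 0.0824). With all livers DESeq2 called 211 genes.

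Cd36 differed between the sexes already in controls. It measured 45.2 ± 14.7 CPM (SD, n = 5) in female and 7.06 ± 2.15 CPM (SD, n = 4) in male controls, and 70.1 ± 17.9 and 86.1 ± 27.8 CPM (SD, n = 5 each) at 0.5 mg/kg. The interaction was -2.97 ± 0.62 (SE; adjusted p = 0.024 by edgeR), -2.85 with an adjusted p of 0.107 without female control replicates 1 and 3, and -2.80 with an adjusted p of 0.0868 without male control replicate 3. Leaving out female control replicates 1 and 3 reduced the 39 interaction calls to 1. That gene was Stip1, a co-chaperone, at 3.02 on the log2 scale (adjusted p = 0.0352 by edgeR), and it did not pass without male control replicate 3 (adjusted p = 0.0824). Cyp4a14 gave -4.09 ± 1.04 (SE; adjusted p = 0.0575 by edgeR). For Retsat the interaction was -0.99 ± 0.68 (SE; adjusted p = 0.661 by edgeR), with a 95% interval of -2.35 to 0.37, so that the sexes were not shown to differ; in males it rose by 2.36 ± 0.41 (SE; adjusted p = 0.00405 by edgeR).

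**Figure D4:**
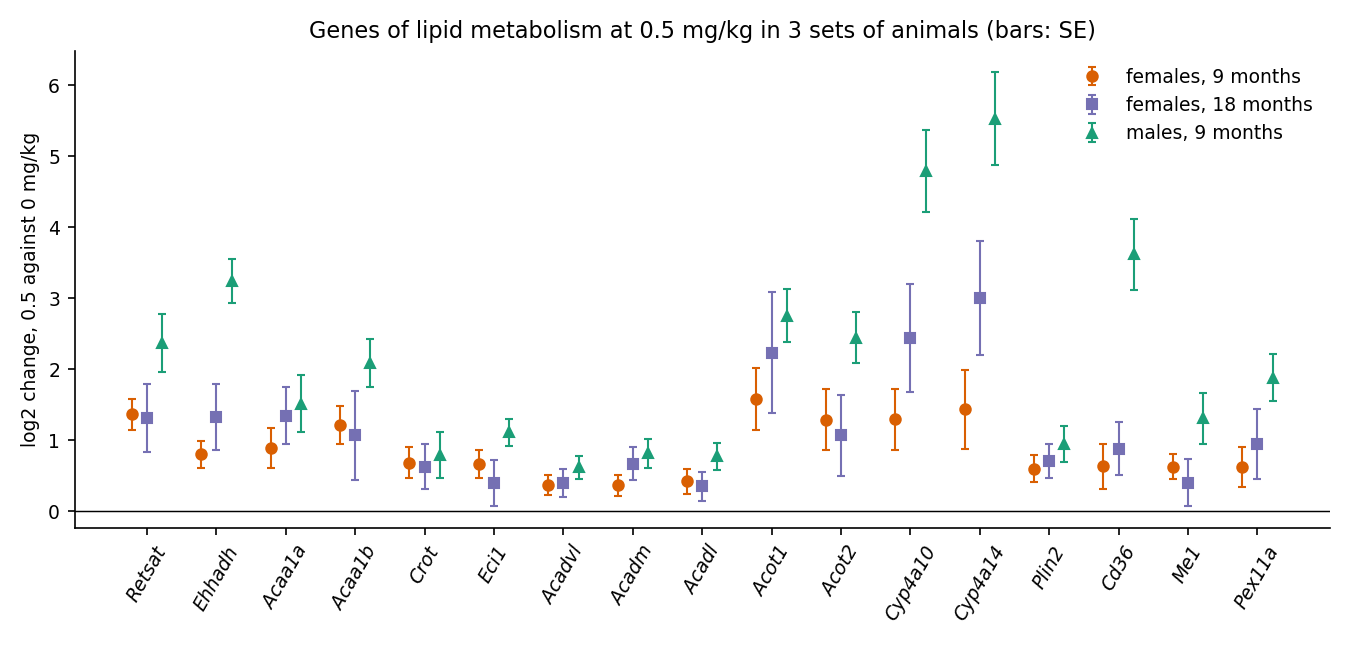
Log2 change at 0.5 against 0 mg/kg (bars SE) of 17 lipid genes in females of 9 months, females of 18 months and males of 9 months, each against its own controls. Ehhadh changed by 0.80, 1.33 and 3.24 and Retsat by 1.36, 1.32 and 2.36 in these 3 sets. The 18-month controls include replicate 3, a library of 403108 counts.

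After 18 months at 0.5 mg/kg no gene passed in females by edgeR (0%), while 1033 of 12421 had an unadjusted p under 0.05 (8.32%). Retsat gave 1.32 ± 0.48 (SE; adjusted p = 0.366 by edgeR), with 194 ± 63.1 CPM in controls and 489 ± 334 CPM at 0.5 mg/kg (SD, n = 5 each). The 5 treated livers ran from 155 to 1025 CPM and overlapped with their controls, at 99.0 to 265 CPM. List medians were 0.39 for peroxisomal, 0.39 for mitochondrial, 0.90 for omega-oxidation and 0.31 for lipid uptake genes, beside -0.01 for all genes. These medians and the change of Retsat at 18 months include control replicate 3, the smallest library, and were not computed without it. The test of the difference between 9 and 18 months passed for 6 genes in the higher direction (0.0439%) and 2 in the lower (0.0146%), and for 1 in all without 18-month control replicate 3, a library of 403108 counts; for Retsat it gave 0.02 ± 0.66 (SE), with a 95% interval of -1.29 to 1.33. Duration goes with age and with depth of sequencing in these groups, which cannot be told apart.

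Genes called in other animals were read in the 9-month females at 0.5 mg/kg, since no liver is shared. At 5 mg/kg, 6.41% of genes were called higher and 6.23% lower in males of 9 months, and 1.08% higher in females of 18 months. Of the 81 genes called in both, 80 were tested here. Their median log2 change was 0.39, and 72 of them lay above 0 (90%, against 47.7% of all genes). At an unadjusted p under 0.05, 24 were higher (2.69% of all genes) and none was lower (6.36% of all genes). Retsat was the 1 that passed, and 6 had groups that did not overlap, in the higher direction (0.387% of all genes). Values for these lists use all controls and were not computed without control replicates 1 and 3. The 132 tested genes called higher at 5 mg/kg in females of 18 months had a median of 0.29, with 117 above 0. The wider list of 708 tested genes called higher at 5 mg/kg in males had a median of 0.03, with 53.8% above 0, and the 696 tested genes called lower there had a median of 0.06, with 62.2% above 0.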

How the data were processed

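Counts were measured in 92 livers by TempO-Seq. Per the submitters' processing notes, bcl2fastq 2.17.1.14 and Bowtie were used; the sources used here give no version of Bowtie, genome build or probe manifest. The authors deposited raw counts per probe (30146 probes), not normalized. Probe counts were summed by symbol here (21400 symbols, 6309 with more than 1 probe). Genes were tested with edgeR 4.0.16 in R 4.3.3 (filterByExpr, TMM, robust quasi-likelihood F test, Benjamini-Hochberg over all genes): the 24 females of 9 months shared 1 fit, and interactions used all 92 livers in 1 fit. Levels are CPM on effective library sizes. DESeq2 1.42.0, RLE size factors, no low-count filter, other sample sets, single probes and leaving out livers were alternatives. The fit was tested on simulated data. P-values measure the spread between livers, each labelled as 1 mouse. The members and gene lists were chosen with earlier results of these data known. Genes are named by these rules: genes called (the 15 largest each way), the 4 members of each list with the smallest p, 11 classic receptor targets, and the 5 largest called rises and falls of each other comparison. Rgs3 and Dio1 are outside them. The 35 lists included 11 of cell type markers. Serpina1c, a hepatocyte marker, was not analysed here. Results for some named genes are not reported here.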

Additional observations from a re-analysis of the deposited data

Results flagged for a closer look

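Among 144 groups of 5 values checked, 11 had 1 liver far from the rest of its group; chance flags about 1 in 20, or 7.2 here. Among 0 mg/kg livers, replicate 2 had 5128 CPM of Saa1 and 3323 CPM of Saa2, acute phase genes with near-identical sequences, against 92.8 to 467 and 31.98 to 278 CPM in the others. Acot2 measured 14.1 CPM in control replicate 5 and 2.87 to 5.15 CPM in the others, Hilpda 2.27 CPM in control replicate 1 and at most 0.551 CPM in the others, and the adipocyte markers summed to 1.10 CPM in control replicate 4 and to 0 in the others.

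Among the 0.5 mg/kg livers, Saa1 was highest in replicate 5 at 328 CPM (the others 70.04 to 110.3), Fgf21 in replicate 4 at 5.35 CPM (0.460 to 1.78), and Gabpb2 in replicate 3 at 58.9 CPM (32.7 to 35.9). Rgs3 was lowest in replicate 2, at 2.10 CPM (8.13 to 10.5). The cell cycle genes Ccnb1 and Cdc6 were highest in replicate 1, at 1.78 CPM (the others at most 0.306) and 0.223 CPM (the others at 0).

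The 0.5 mg/kg response differed between females and males of 9 months, by the edgeR interaction test, for the following named genes. The differences, female minus male on the log2 scale, were -2.43 for Ehhadh (adjusted p = 0.0429), -2.97 for Cd36 (0.024), 3.58 for Tuba1c (0.0327), 2.80 for Stip1 (0.0151) and 1.80 for Lysmd3 (0.0429). Lysmd3 was between 2.19 and 8.92 CPM in female controls and between 12.4 and 19.5 CPM in treated females. They were -14.68 for Ighv1-9 (0.0488), -12.04 for Pla2g2d (0.025), -11.53 for Cr2 (0.025), -10.52 for Ighv1-18 (0.0488) and -9.53 for Cox6b2 (0.0488). Of these 10 genes, Stip1 passed without female control replicates 1 and 3, and without male control replicate 3 no gene passed. Cr2, a B cell receptor for complement, measured 302 and 343 CPM in female control replicates 1 and 3 and at most 4.75 CPM in the other controls. Ighv1-9, an antibody segment, was at 0 in all treated females, so its fitted value is no bound.

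The response differed between 9 and 18 months in females, by the same test, for Gm3411 (14.08, adjusted p = 0.017), Anxa9 (3.67, 0.0377), Nasp (3.62, 0.017), Phf7 (3.49, 0.0273), Mctp2 (3.49, 0.017) and Gabpb2 (-2.35, 1.37e-06), as 9 minus 18 months on the log2 scale. Without 18-month control replicate 3, a library of 403108 counts, Gabpb2 still passed (-2.34, adjusted p = 3.47e-06) and the other 5 named here did not. Gm3411 was at 0 in all 9-month female controls, so its fitted value is no bound.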

How the results depend on the processing

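At 0.5 against 0 mg/kg the count of 1 gene became 0 at an adjusted p under 0.01, 3 at one under 0.1, 3 without the low-count filter, 89 with DESeq2, 0 with only the 2 groups, 4 with all 92 livers, 3 without robust estimation, 0 without control replicates 1 and 3 (chosen after seeing the data), and 0 to 3 without single livers. The 114 genes between 5 and 0.5 mg/kg became 232 with DESeq2 and 60 to 113 without single livers, 60 without 5 mg/kg replicate 1. The 0 genes between 0.5 and 0.1 mg/kg became 3 with DESeq2, 1 with only the groups compared and 0 to 2 without single livers. The 39 sex interactions became 17 with RLE size factors, 9 without the filter, 211 with DESeq2, 5 with only the groups compared, 1 without control replicates 1 and 3 and 0 to 49 without single livers, 0 without male control replicate 3. The 8 duration interactions became 19 with RLE size factors, 139 with DESeq2, 1 with only the groups compared and 1 to 151 without single livers, 1 without 18-month control replicate 3 (403108 counts) and 151 without replicate 4. The cause of these shifts was not tested.

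Without single livers the list medians ranged from 0.23 to 0.52 (peroxisomal), 0.23 to 0.40 (mitochondrial), 0.54 to 1.26 (omega-oxidation), 0.30 to 0.43 (lipid uptake), -2.29 to -1.21 (cell cycle) and -4.01 to -2.81 (lymphocyte), and the index difference from 0.35 to 0.59. Without both control replicates 1 and 3 the cell cycle median was 0.049 and the lymphocyte median -0.23. No single-gene call changed sign. No paired analysis was possible because replicate numbers only name animals.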

Other observations

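Apoa1, the main protein of high-density lipoprotein, had a log2 change of -0.77 ± 0.27 (SE; adjusted p = 0.320 by edgeR) at 0.5 mg/kg and -0.13 ± 0.27 (SE; adjusted p = 0.918) at 5 mg/kg, against the same controls. Lcat, which esterifies cholesterol in that particle, gave 0.79 ± 0.29 (SE; adjusted p = 0.342 by edgeR), with controls at 4.08 to 10.3 CPM and treated livers at 9.02 to 14.1 CPM. Stard4, a sterol carrier, gave 1.20 ± 0.42 (SE; adjusted p = 0.320 by edgeR), with treated livers at 4.41 to 16.04 CPM and controls at 1.46 to 7.14 CPM. None of these 3 passed, and each pair of groups overlapped.

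Sult2a7, a female-biased sulfotransferase, split the treated livers. It measured 293, 18.5, 282, 8.41 and 309.9 CPM at 0.5 mg/kg and 6.50, 30.3, 9.01, 44.2 and 19.5 CPM in controls, so that 3 treated livers lay well above all controls and 2 within their range. The log2 change was 3.06 ± 1.04 (SE; adjusted p = 0.326 by edgeR). Btg2, an antiproliferative p53 target, had a log2 change of -1.49 ± 0.45 (SE; adjusted p = 0.283 by edgeR), with its 2 highest values, 78.4 and 63.04 CPM, in control replicates 1 and 3.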
